A study of Homo sapiens with 24 samples.

Results

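The CXCR1/2 ligand chemokines are the 6 genes CXCL1, CXCL2, CXCL3, CXCL5, CXCL6 and CXCL8, found by gene name among the 58735 genes of a read count table, with 1 gene identifier for each name. The table held 24 poly(A) RNA-seq libraries of OE33 and SK-GT-4, established human cell lines of esophageal adenocarcinoma. Each line was used as a Cas9 control and as a cGAS knockout (cGAS KO), both made by lentiviral CRISPR-Cas9, and each genotype was given either DMSO or the MPS1 inhibitor reversine at 500 nM for 48 h (MPS1i). This gave 8 groups of 3 libraries, 1 from each of batches 1, 2 and 3. The controls thus also carried Cas9, the study worked with clones of each genotype, the labels name no clone, and a difference between genotypes cannot be told apart from a difference between clones. MPS1 is a kinase of the spindle checkpoint, and its inhibition makes chromosomes missegregate and micronuclei form. cGAS is the sensor of cytosolic DNA that signals through STING.

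These chemokines carry an ELR motif ahead of their paired cysteines and draw neutrophils through the G protein-coupled receptors CXCR1 and CXCR2. CXCL8 (interleukin-8) and CXCL6 bind both receptors, whereas CXCL1, CXCL2, CXCL3 and CXCL5 act mainly on CXCR2. Epithelial and carcinoma cells transcribe the genes through NF-kB sites close to their starts, helped at CXCL8 by AP-1 and C/EBP factors, and AU-rich elements in the messages make them short-lived.

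The 6 genes lie within 358788 bases of chromosome 4 in the coordinates of the table (GRCh38). CXCL8 (ENSG00000169429) spans chr4:73740506-73743716, CXCL6 (ENSG00000124875) chr4:73836497-73849064 and CXCL1 (ENSG00000163739) chr4:73869393-73871242, all on the plus strand. CXCL5 (ENSG00000163735, chr4:73995642-73998779), CXCL3 (ENSG00000163734, chr4:74036589-74038807) and CXCL2 (ENSG00000081041, chr4:74097035-74099293) lie on the minus strand. A search of the RefSeq promoters of all 6 members (GRCh38.p14, from 250 bases before to 50 after the start) for GGGAATTTCC, an NF-kB (kB) motif, on both strands found it in 5 members and in 51 of all 35116 promoters (0.145%). CXCL8 holds only its last 9 bases, GGAATTTCC, which are in all 6 members and in 0.461% of promoters. The windows around the site are shown because they group the members by sequence, with the kB letters in capitals and each read 5′ to 3′ on the gene's own strand.

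CXCL1, chr4:73869304-73869333, plus strand: ctggaactccGGGAATTTCCctggcccggg
CXCL2, chr4:74099254-74099283, minus strand: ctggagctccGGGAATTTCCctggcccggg
CXCL3, chr4:74038749-74038778, minus strand: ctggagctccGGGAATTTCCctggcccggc
CXCL5, chr4:73998749-73998778, minus strand: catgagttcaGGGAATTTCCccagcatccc
CXCL6, chr4:73836578-73836607, plus strand: cctgagttcaGGGAATTTCCccagcatccc
CXCL8, chr4:73740467-73740496, plus strand: ttgcaaatcgtGGAATTTCCtctgacataa

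The windows of CXCL1 and CXCL2 share 29 of 30 bases, those of CXCL2 and CXCL3 29, and those of CXCL5 and CXCL6 29. The CXCL8 window shares 14 to 17 bases with the other 5. Counted from the first base of the full motif, CXCL8 differs by G1T. The sites start between 91 and 78 bases before the RefSeq start. CXCL8 is also the only member whose promoter holds TGACTCA, an AP-1 motif (4.95% of promoters), and TTGCAAAT, a C/EBP-like motif (0.883%), on either strand and with no overlap with the kB bases. The sequence upstream of CXCL8 is shown with those motifs and the kB bases in capitals, beside that of CXCL1, in which only the kB motif is in capitals. TATAAA (11.5% of promoters) lies close to the start of CXCL8 and CATAAAA (3.7%) at the like place in CXCL1, CXCL2 and CXCL3, and GGGCGG, a GC box (45% of promoters), is in CXCL1, CXCL3 and CXCL6. The motifs are descriptions of the letters and do not show that a factor binds. The map of motif positions gives all 6 promoters.

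CXCL8, chr4:73740319-73740505, plus strand: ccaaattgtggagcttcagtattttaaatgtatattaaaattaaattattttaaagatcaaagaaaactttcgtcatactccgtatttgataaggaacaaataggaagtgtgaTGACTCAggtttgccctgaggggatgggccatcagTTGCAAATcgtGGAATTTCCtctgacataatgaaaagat
CXCL1, chr4:73869143-73869392, plus strand: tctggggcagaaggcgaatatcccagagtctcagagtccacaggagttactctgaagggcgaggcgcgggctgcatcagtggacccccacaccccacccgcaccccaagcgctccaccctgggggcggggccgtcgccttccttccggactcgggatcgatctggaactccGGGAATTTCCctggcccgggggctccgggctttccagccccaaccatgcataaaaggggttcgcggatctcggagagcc

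**Figure D1:**
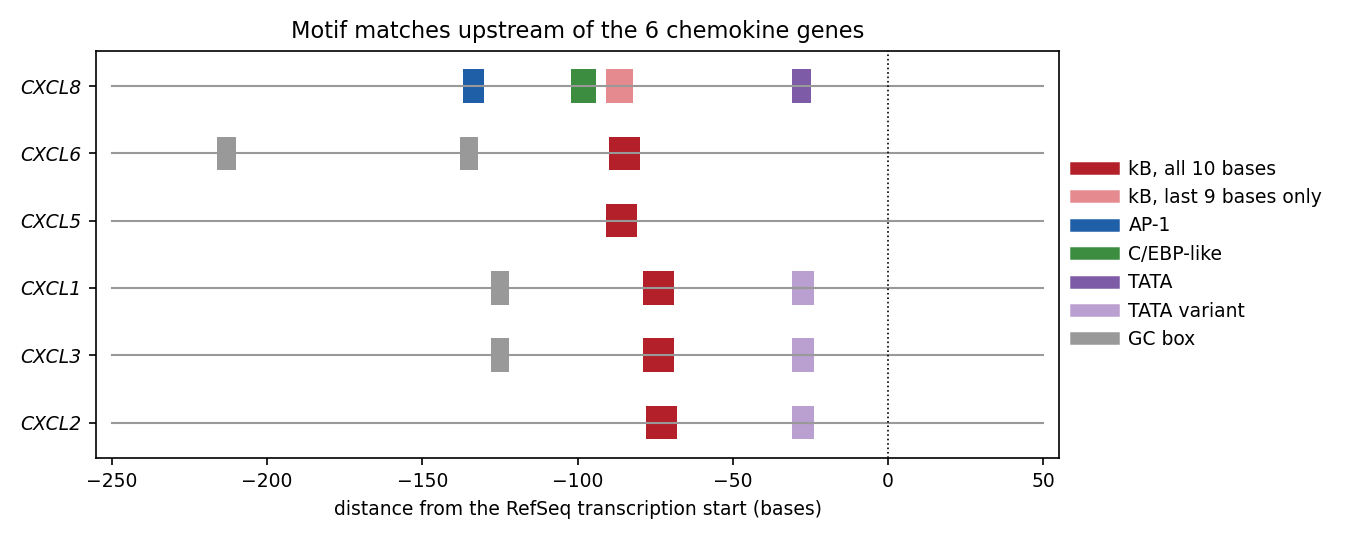
Positions of the searched motifs in the promoters of the 6 members, with distance from the RefSeq start in bases on the x axis and 1 row for each gene. Every member has a kB site starting 91 to 78 bases before its start, and the AP-1 and C/EBP-like motifs are in the CXCL8 promoter alone among the 6.

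Library totals ran from 15561268 to 25284177 counts, and mitochondrial genes took 1.21 to 11.3% of them. All 7 epithelial markers, EPCAM and CDH1 among them, were above the floor of 3 counts in 24 of 24 libraries. Their summed level was 17312 to 23965 CPM (counts scaled by library size) in OE33, 3704 to 8684 in SK-GT-4 Cas9 and 9146 to 19467 in SK-GT-4 cGAS KO. The 8 leukocyte markers, relevant because leukocytes also make these chemokines, summed to 2.21 to 34.5 CPM. The fibroblast markers reached 82.0 CPM and the endothelial markers 19.2 CPM in any library. CGAS read 28.9 to 41.6 CPM in OE33 Cas9 and 14.7 to 26.1 CPM in SK-GT-4 Cas9. In SK-GT-4 cGAS KO it read 2.22 to 6.09 CPM and in 5 of 6 OE33 cGAS KO libraries 2.31 to 2.82 CPM, but the library labelled replicate 2 of OE33 cGAS KO with DMSO read 15.6 CPM, against its label. In SK-GT-4, a pair of libraries correlated least with the others of their group, cGAS KO DMSO replicate 1 (median r = 0.857) and Cas9 MPS1i replicate 2 (0.918). Values without these 3 libraries are given where a call or sign changed or a value moved by much.

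CXCL8 was the member with the most reads in both lines, with 13921 counts over 12 OE33 libraries and 27548 over 12 SK-GT-4 libraries. In OE33 it read 32.3, 5.74 and 25.9 CPM in Cas9 cells with DMSO (batches 1, 2 and 3) and 42.3, 25.5 and 54.5 CPM with MPS1i. In OE33 cGAS KO it read 56.4, 51.5 and 79.1 CPM with DMSO and 67.0, 98.8 and 151.9 CPM with MPS1i. The lowest knockout library with DMSO was thus above the highest Cas9 library with DMSO, and the same held with MPS1i. How many of all genes separate in this way was not counted, so the separation is a description. These are levels of a whole culture, in which more cells with the message and more message per cell cannot be told apart.

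In SK-GT-4, CXCL8 read 226, 14.7 and 25.0 CPM in Cas9 cells with DMSO and 260, 131 and 55.2 CPM with MPS1i. The cGAS KO libraries read 146, 33.3 and 131 CPM with DMSO and 138, 49.2 and 126 CPM with MPS1i. All 4 groups overlapped, and batch 1 gave the highest value of each.

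CXCL1, a growth-regulated chemokine first known from melanoma cells, came next in OE33 with 3458 counts, against 2264 in SK-GT-4. OE33 Cas9 cells held 16.6, 2.21 and 14.0 CPM with DMSO and 15.3, 4.43 and 17.7 CPM with MPS1i. OE33 cGAS KO cells held 7.61, 36.3 and 15.1 CPM with DMSO and 10.1, 10.7 and 21.3 CPM with MPS1i. The 36.3 CPM, the highest CXCL1 value of the 24, came from the library whose CGAS level did not match its label. In SK-GT-4 the values were 18.2, 2.59 and 3.34 CPM in Cas9 with DMSO and 23.4, 9.47 and 3.19 CPM with MPS1i. The SK-GT-4 cGAS KO cells gave 12.6, 5.97 and 6.93 CPM with DMSO and 12.1, 4.96 and 5.01 CPM with MPS1i. The groups overlapped within each line.

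CXCL6 (granulocyte chemotactic protein) had 1129 counts in OE33 and 1680 in SK-GT-4. OE33 Cas9 read 4.97, 1.44 and 4.09 CPM with DMSO and 5.09, 3.32 and 6.46 CPM with MPS1i. OE33 cGAS KO read 3.73, 9.46 and 4.52 CPM with DMSO and 4.44, 2.73 and 5.91 CPM with MPS1i, its highest value again in DMSO replicate 2. SK-GT-4 Cas9 read 9.86, 3.29 and 3.01 CPM with DMSO and 9.63, 7.63 and 2.78 CPM with MPS1i. The SK-GT-4 cGAS KO libraries lay between 6.55 and 8.61 CPM with either treatment, inside the range of the Cas9 cells.

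CXCL2 and CXCL3, close relatives of CXCL1, had fewer reads in SK-GT-4 than in OE33. OE33 held 1858 counts of CXCL2 against 333 for SK-GT-4, and 1199 of CXCL3 against 328. CXCL2 read 7.76, 1.38 and 5.60 CPM in OE33 Cas9 with DMSO and 11.4, 4.23 and 10.9 CPM with MPS1i. It read 6.48, 3.90 and 7.44 CPM in OE33 cGAS KO with DMSO and 11.3, 6.71 and 14.9 CPM with MPS1i. The treated value exceeded the DMSO value of its own batch in all 6 pairs, while the groups overlapped.

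In SK-GT-4 Cas9 cells CXCL2 read 2.91, 0.29 and 0.15 CPM with DMSO (57, 7 and 4 counts) and 5.89, 2.25 and 0.67 CPM with MPS1i (137, 39 and 13 counts). In SK-GT-4 cGAS KO it read 0.94, 0.48 and 0.64 CPM with DMSO and 0.77, 0.37 and 0.52 CPM with MPS1i, on 9 to 19 counts a library. The gene was thus close to the floor in most SK-GT-4 libraries.

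CXCL3 read 7.24, 1.28 and 4.94 CPM in OE33 Cas9 with DMSO and 6.81, 3.06 and 8.96 CPM with MPS1i. In OE33 cGAS KO it read 3.48, 3.95 and 4.19 CPM with DMSO and 4.25, 4.76 and 6.87 CPM with MPS1i. These last groups did not overlap, again without a count over all genes. In SK-GT-4 Cas9 it read 1.99, 0.37 and 0.15 CPM with DMSO (39, 9 and 4 counts). With MPS1i it read 3.61, 1.85 and 0.46 CPM there (84, 32 and 9 counts). The SK-GT-4 cGAS KO libraries lay between 0.76 and 1.87 CPM. CXCL5 (epithelial neutrophil-activating peptide) was at or near 0 throughout, with 4 counts over the OE33 libraries, no library above 3, and 7 over the SK-GT-4 libraries, no library above 4. No fold change is given for CXCL5, whose changes were not detectable at this depth although its kB window matches that of CXCL6 in 29 of 30 bases.

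**Figure D2:**
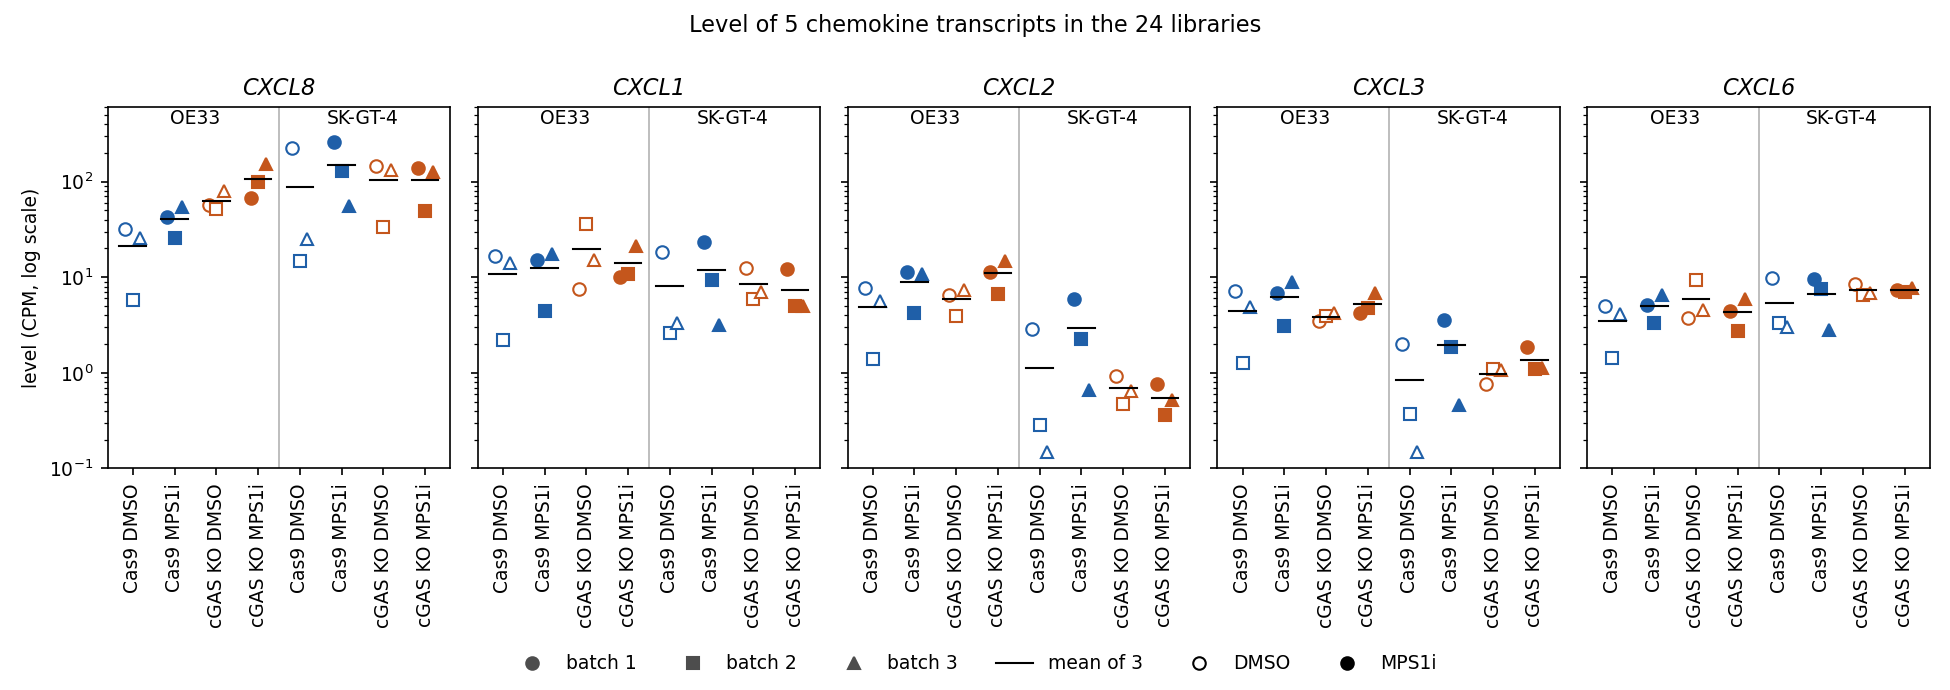
Level of the 5 measured members in each of the 24 libraries, in CPM on a log axis, by cell line, genotype and treatment, with points marked by batch. CXCL8 reaches 260 CPM, CXCL2 and CXCL3 are lower in SK-GT-4 than in OE33 over most libraries, and batch 2 lies lowest for each of the 5 in OE33 Cas9 with DMSO.

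The members shared much of their order over batches. In OE33 Cas9 with DMSO, batch 2 was lowest for CXCL1, CXCL2, CXCL3, CXCL6 and CXCL8 alike, and in SK-GT-4 Cas9 with DMSO, batch 1 was highest for all 5. Over the 12 libraries of a line, Pearson's r of log2 CPM between pairs of these members was 0.595 to 0.918 in OE33 and 0.668 to 0.871 in SK-GT-4. After the group means were taken out it was 0.668 to 0.956 and 0.749 to 0.958. The points share batches and library scaling, so the r values are descriptions. CXCL2 and CXCL3 also share sequence, since 1.96% of the 150-base windows of CXCL2 transcripts and 1.15% of those of CXCL3 are identical between the genes in GENCODE v44, so a few reads could be assigned to either. The other 4 members shared no such window.

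CPM per kb of the gene length deposited with the counts, used to set the members side by side, gave the make-up of the summed ligand message. These lengths were 2274 bases for CXCL8, 2219 for CXCL3, 2183 for CXCL6 and 1296 for CXCL1. The GENCODE v44 transcripts had 1642, 1075, 1537 and 1174 bases, so the share of each member depends on the length chosen. CXCL8 was 37.7 to 39.6% of it in OE33 Cas9 with DMSO, 42.8 to 55.1% with MPS1i, 38.1 to 64.8% in OE33 cGAS KO with DMSO and 60.4 to 72.9% with MPS1i. In SK-GT-4 it was 62.6 to 82.3%, 80.3 to 84.7%, 63.5 to 86.0% and 73.6 to 87.0% in the same order of groups. CXCL8 thus made up a larger share in SK-GT-4 Cas9 than in OE33 Cas9 with either treatment, with no overlap of the libraries. CXCL2 was 12.4 to 14.5% in OE33 Cas9 with DMSO and 0.656 to 1.86% in SK-GT-4 Cas9 with DMSO. CXCL1 was 26.6 to 35.9% and 11.6 to 19.4% of the same libraries. In the OE33 cGAS KO DMSO library with high CGAS, CXCL1 (47.2%) exceeded CXCL8 (38.1%) on this scale. That order rests on the deposited gene lengths, and shares by transcript length were not computed.

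**Figure D3:**
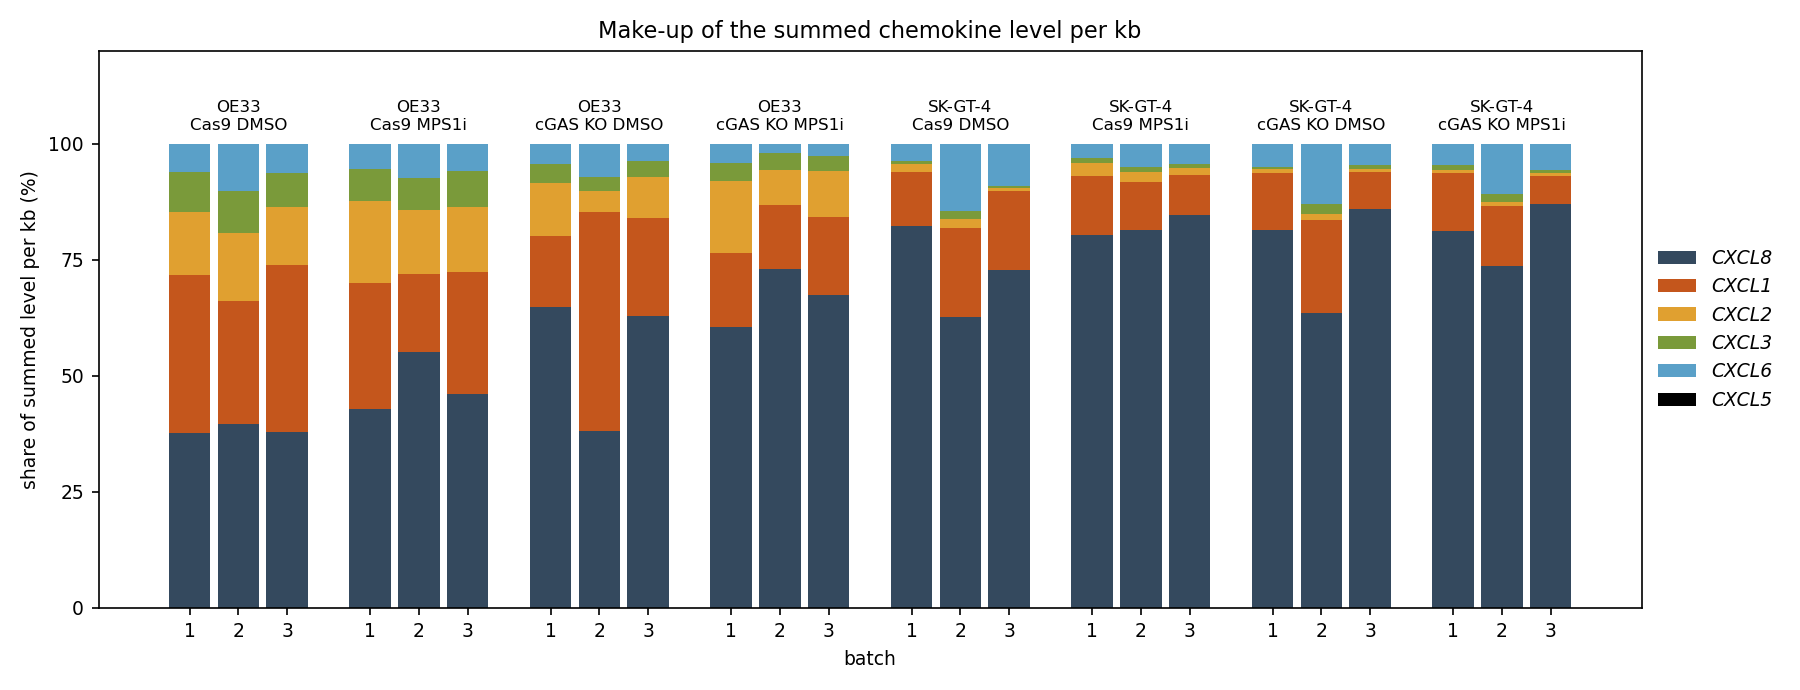
Share of each member in the summed CPM per kb of the 6 genes, in percent, as 1 stacked bar for each library. The shares use the gene lengths deposited with the counts. CXCL8 takes 62.6 to 87.0% in SK-GT-4 and 37.7 to 72.9% in OE33, and CXCL2 and CXCL3 are thin slices in SK-GT-4.

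The cell lines were compared in Cas9 cells with DMSO, on all 24 libraries, to ask how the resting ligand levels differ. CXCL2 was higher in OE33 by 2.35 on the log2 scale (SE 0.61, edgeR's quasi-likelihood test, Benjamini-Hochberg adjusted p = 0.00369 over 25181 genes). CXCL3 was higher by 2.52 (SE 0.64, adjusted p = 0.00347, same test). These were the 2 of 5 tested members past the threshold of 0.01 on the adjusted p, where 10.9% of all genes tested were called higher in OE33 and 13.5% lower. CXCL8 had a log2 difference of -1.82 (SE 0.63), lower in OE33, with an adjusted p of 0.0288 in the same edgeR test, and -0.52 without batch 1 (adjusted p = 0.490). CXCL1 (0.60, SE 0.69) and CXCL6 (-0.58, SE 0.48) differed by about their errors, and the median over all genes was -0.14. The CPM ranges of the lines overlapped for each member. In SK-GT-4 Cas9 with DMSO, CXCL2 rested on 57, 7 and 4 counts and CXCL3 on 39, 9 and 4. Both were close to the floor in batches 2 and 3, so the sizes of their differences are uncertain. Without batch 3 neither call held, with an adjusted edgeR p of 0.0591 for CXCL2 and 0.0779 for CXCL3. CXCL2 also lost its call without batch 2 (0.0115) and without batch terms (0.0342), and its difference was 3.80 without batch 1.

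MPS1i was compared with DMSO inside each genotype and line, to ask how the ligands differ with the inhibitor in Cas9 and in cGAS KO cells. Missegregation itself was not measured in these libraries. In OE33 Cas9 cells all 5 measured members had positive log2 fold changes, of 0.97 (SE 0.33) for CXCL8, 0.89 (SE 0.25) for CXCL2, 0.49 (SE 0.36) for CXCL3, 0.49 (SE 0.41) for CXCL6 and 0.18 (SE 0.58) for CXCL1. Their median was 0.49, against 0.01 for all genes. None of the 5 was called by edgeR's quasi-likelihood test, where 1 of 20426 genes was called higher (0.00490%). At an unadjusted p under 0.05 CXCL8 and CXCL2 passed, as did 3.52% of all genes in that direction, and their adjusted p was 0.582 and 0.424. Within batches the log2 CPM difference was 0.39 to 2.13 for CXCL8 and 0.55 to 1.55 for CXCL2, positive in 3 of 3.

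OE33 cGAS KO cells gave log2 fold changes of 0.76 (SE 0.32) for CXCL8 and 0.86 (SE 0.24) for CXCL2, again higher in 3 of 3 batches, by 0.25 to 0.94 and 0.77 to 1.00 in log2 CPM. CXCL3 had 0.41 (SE 0.36), and was higher in each batch, by 0.27 to 0.70. CXCL1 and CXCL6 had negative values of -0.69 (SE 0.59) and -0.56 (SE 0.41). Both were positive without DMSO replicate 2, at 0.83 and 0.35. The edgeR adjusted p was 0.685 for CXCL8 and 0.587 for CXCL2, and neither these nor any gene of the table was called (0%). At an unadjusted p under 0.05, 2 of 5 members and 3.82% of all genes passed as higher.

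Batch terms of their own for each genotype, a fit in which every treated library is set against the DMSO library of its genotype and batch, did give calls in OE33. In Cas9 cells CXCL8 (1.09, SE 0.17) had an adjusted p of 0.000165 and CXCL2 (0.92, SE 0.19) of 0.00478 in edgeR, where 0.299% of genes were called higher. In cGAS KO cells CXCL2 (0.85, SE 0.17) had an adjusted p of 0.00535, with 0.343% of genes called higher, and CXCL8 (0.70, SE 0.15) one of 0.0104. Batch adjustment of the counts by ComBat-seq followed by DESeq2, closest to the study's methods, called CXCL2 in Cas9 cells (adjusted p = 4.37e-05) and both in cGAS KO cells (6.71e-05 for CXCL2 and 0.00363 for CXCL8), and CXCL8 missed in Cas9 cells (0.0172). It called 2.60% and 0.730% of all genes higher in the Cas9 and cGAS KO cells.

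SK-GT-4 Cas9 cells had positive fold changes of all 5 measured members, with wide errors. The log2 values were 1.73 (SE 0.64) for CXCL2, 1.46 (SE 0.67) for CXCL8, 1.40 (SE 0.65) for CXCL3, 0.74 (SE 0.42) for CXCL1 and 0.37 (SE 0.39) for CXCL6, with a median of 1.40 against 0.04 over all genes. CXCL2, CXCL3 and CXCL8 were higher with MPS1i in 3 of 3 batches, CXCL8 by 0.20 to 3.15 in log2 CPM. No member and no gene was called by edgeR (0%), and the adjusted p was 0.981 for each member. CXCL2 alone of the 5 was under an unadjusted p of 0.05, as was 2.01% of all genes in that direction. Without Cas9 MPS1i replicate 2 the values were 1.37 for CXCL2, 0.63 for CXCL8, 1.17 for CXCL3, 0.40 for CXCL1 and 0.06 for CXCL6.

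SK-GT-4 cGAS KO cells showed small values of both signs, from -0.35 (SE 0.71) for CXCL2 and -0.29 (SE 0.41) for CXCL1 to 0.31 (SE 0.66) for CXCL3, with 0.12 (SE 0.63) for CXCL8 and 0.06 (SE 0.39) for CXCL6. CXCL1 and CXCL2 were lower with MPS1i in 3 of 3 batches, CXCL2 with differences of -0.31 to -0.25 in log2 CPM on counts of 9 to 19. In batch 1 the raw counts were higher with MPS1i, at 298 against 215 for CXCL1 and 19 against 16 for CXCL2. The sign in that batch thus rests on scaling. None of the 5 was called (0% of all genes), and none was under an unadjusted p of 0.05, where 0.733% of genes passed as higher. Without cGAS KO DMSO replicate 1 all 5 values were negative, at -0.91 for CXCL2, -0.59 for CXCL1, -0.30 for CXCL3, -0.15 for CXCL8 and -0.10 for CXCL6.

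**Figure D4:**
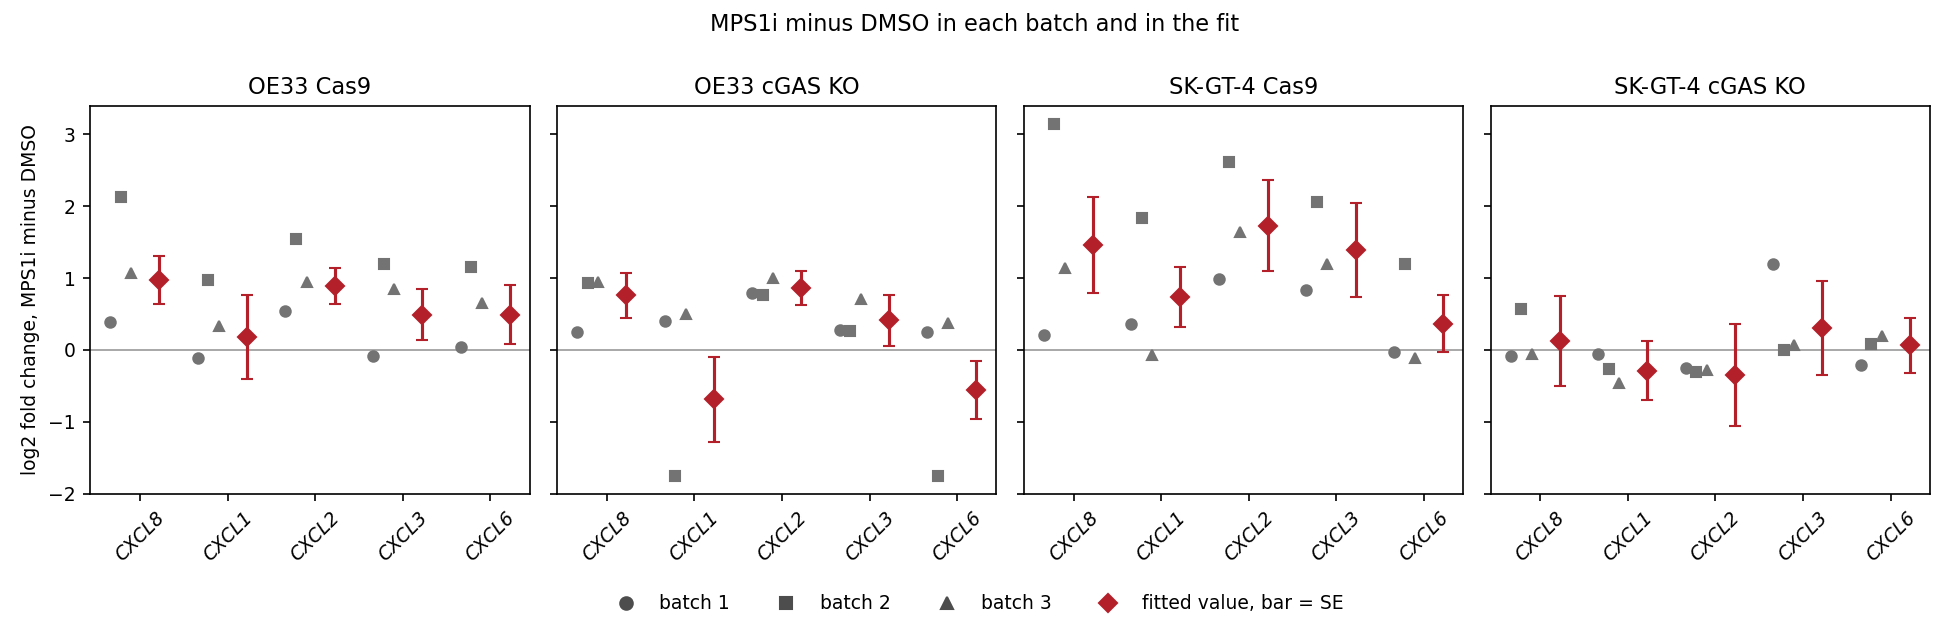
Log2 fold change of MPS1i against DMSO for the 5 measured members in each line and genotype, with bars of 1 SE from edgeR and the log2 CPM difference of each batch as points. CXCL2 and CXCL8 are above 0 in every batch in OE33 Cas9, OE33 cGAS KO and SK-GT-4 Cas9, and CXCL2 is below 0 in every batch in SK-GT-4 cGAS KO.

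The difference of these effects, Cas9 minus cGAS KO, was then taken in each line. In it, dependence on cGAS cannot be told apart from a difference between clones. In OE33 it was 0.21 (SE 0.45) for CXCL8, 0.03 (SE 0.34) for CXCL2, 0.08 (SE 0.51) for CXCL3, 0.87 (SE 0.84) for CXCL1 and 1.05 (SE 0.58) for CXCL6, all with an adjusted p of 1 in edgeR. No gene of the table was called (0%) and 1.04% were under an unadjusted p of 0.05 as higher. Without cGAS KO DMSO replicate 2 the values were -0.60 for CXCL1, 0.18 for CXCL6, 0.03 for CXCL8, -0.15 for CXCL2 and -0.32 for CXCL3. CXCL8 had a larger effect in Cas9 than in cGAS KO in 3 of 3 batches, by 0.13 to 1.19 in log2 CPM, and CXCL2 in 1 of 3. The CXCL8 estimate with batch terms for each genotype was 0.39 (SE 0.23), with an unadjusted p of 0.0927 and an adjusted p of 1 in edgeR.

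In SK-GT-4 the difference was 2.08 (SE 0.95) for CXCL2, 1.34 (SE 0.91) for CXCL8, 1.09 (SE 0.92) for CXCL3, 1.03 (SE 0.58) for CXCL1 and 0.31 (SE 0.55) for CXCL6, with a median of 1.09 against -0.01 over all genes. CXCL2 differed by 1.25 to 2.93 in log2 CPM within batches, CXCL1 by 0.40 to 2.10 and CXCL8 by 0.28 to 2.58, each positive in 3 of 3. None was called, nor any gene (0%), with 1.88% as higher at an unadjusted p under 0.05, and the adjusted p of CXCL2 in edgeR was 0.823, on an unadjusted p of 0.0513. For CXCL8 the difference was 0.46 without Cas9 MPS1i replicate 2, while that of CXCL2 was 1.74. The MPS1i effect in Cas9 cells was also compared between lines, and OE33 minus SK-GT-4 was -0.06 for CXCL8, -0.69 for CXCL2, -0.79 for CXCL3, -0.46 for CXCL1 and 0.17 for CXCL6, with an adjusted edgeR p of 1 and 0% of genes called.

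The knockout was set against Cas9 within each treatment. These comparisons use the same libraries as those above, so the values stand side by side and are not independent. In OE33 with DMSO, CXCL8 was 1.63 (SE 0.33) higher in cGAS KO on the log2 scale, with an adjusted p of 0.0101 that lies just above the threshold in edgeR. With MPS1i it was 1.42 (SE 0.33) higher, with an adjusted p of 0.0131. CXCL8 was higher in the knockout in 6 of 6 pairs, by 0.80 to 3.14 with DMSO and 0.66 to 1.95 with MPS1i. None of the 5 members was called in either treatment, where 1.00% and 1.88% of genes were called higher. At an adjusted p of 0.05 CXCL8 was called in both, beside 2.76% and 4.71% of genes. Without cGAS KO DMSO replicate 2, the library with high CGAS, CXCL8 passed in both, at 1.45 (adjusted p = 0.00732) with DMSO and 1.43 (0.00313) with MPS1i, beside 2.92% and 3.91% of genes called higher. It also passed without batch 1 (0.00167 and 0.00596), beside 0.385% and 0.474%, but not without batch 2 or batch 3 (0.0154 to 0.277).

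The other OE33 members had smaller or opposite differences. With DMSO, where 0.465% of genes were called lower, the knockout difference was 1.03 (SE 0.63) for CXCL1, 0.83 (SE 0.42) for CXCL6, 0.38 (SE 0.25) for CXCL2 and -0.10 (SE 0.37) for CXCL3. CXCL1 and CXCL6 turned to -0.29 and -0.04 without DMSO replicate 2. With MPS1i, where 0.955% were called lower, the values were 0.16 for CXCL1, -0.22 for CXCL6, 0.35 for CXCL2 and -0.18 for CXCL3. CGAS itself was called lower in the knockout by edgeR, at -2.50 (SE 0.45, adjusted p = 0.00378) with DMSO and -3.77 (SE 0.48, adjusted p = 0.00021) with MPS1i. Without cGAS KO DMSO replicate 2 the CGAS values were -3.85 and -3.72, and without batch 3 neither passed (adjusted p = 0.242 and 0.0548 in edgeR), nor did the DMSO value without batch 1 (0.0490) or with edgeR's own filter (0.0176). With no batch terms neither passed (0.126 and 0.0134). The 406 better-counted genes of chromosome 4, the measured members included, had median differences of 0.02 in both treatments.

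In SK-GT-4 with DMSO the knockout difference was 0.82 (SE 0.67) for CXCL8, 0.81 for CXCL3, 0.60 for CXCL6, 0.52 for CXCL1 and -0.01 (SE 1.20) for CXCL2, none called beside 1.10% of genes called higher and 0.658% lower. Without cGAS KO DMSO replicate 1 the DMSO values were 1.19 for CXCL8, 1.49 for CXCL3, 0.79 for CXCL6, 0.85 for CXCL1 and 0.56 for CXCL2, again with none called. With MPS1i CXCL2 was -2.09 (SE 0.68), lower in the knockout in 3 of 3 batches, with an adjusted p of 0.116 in edgeR. CXCL8 was then -0.52 (SE 0.65), CXCL1 -0.51, CXCL3 -0.28 and CXCL6 0.29, and no member was among the 0.597% of genes called lower or the 0.812% called higher. Without Cas9 MPS1i replicate 2 alone the MPS1i values were 0.44 for CXCL8, -0.14 for CXCL1, -0.07 for CXCL3, 0.62 for CXCL6 and -1.76 for CXCL2. Without Cas9 MPS1i replicate 2 and cGAS KO DMSO replicate 1 together, CXCL2 was called lower with MPS1i by edgeR (-1.79, adjusted p = 0.00287), beside 5.16% of all genes. In the same fit CXCL8 (1.36, adjusted p = 9.32e-06) and CXCL1 (0.94, adjusted p = 0.00294) were called higher with DMSO, beside 8.05% of genes. EPCAM read 904 to 1823 counts in SK-GT-4 Cas9 and 4148 to 7333 in SK-GT-4 cGAS KO, and the part of this marker difference in the chemokine values was not tested.

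**Figure D5:**
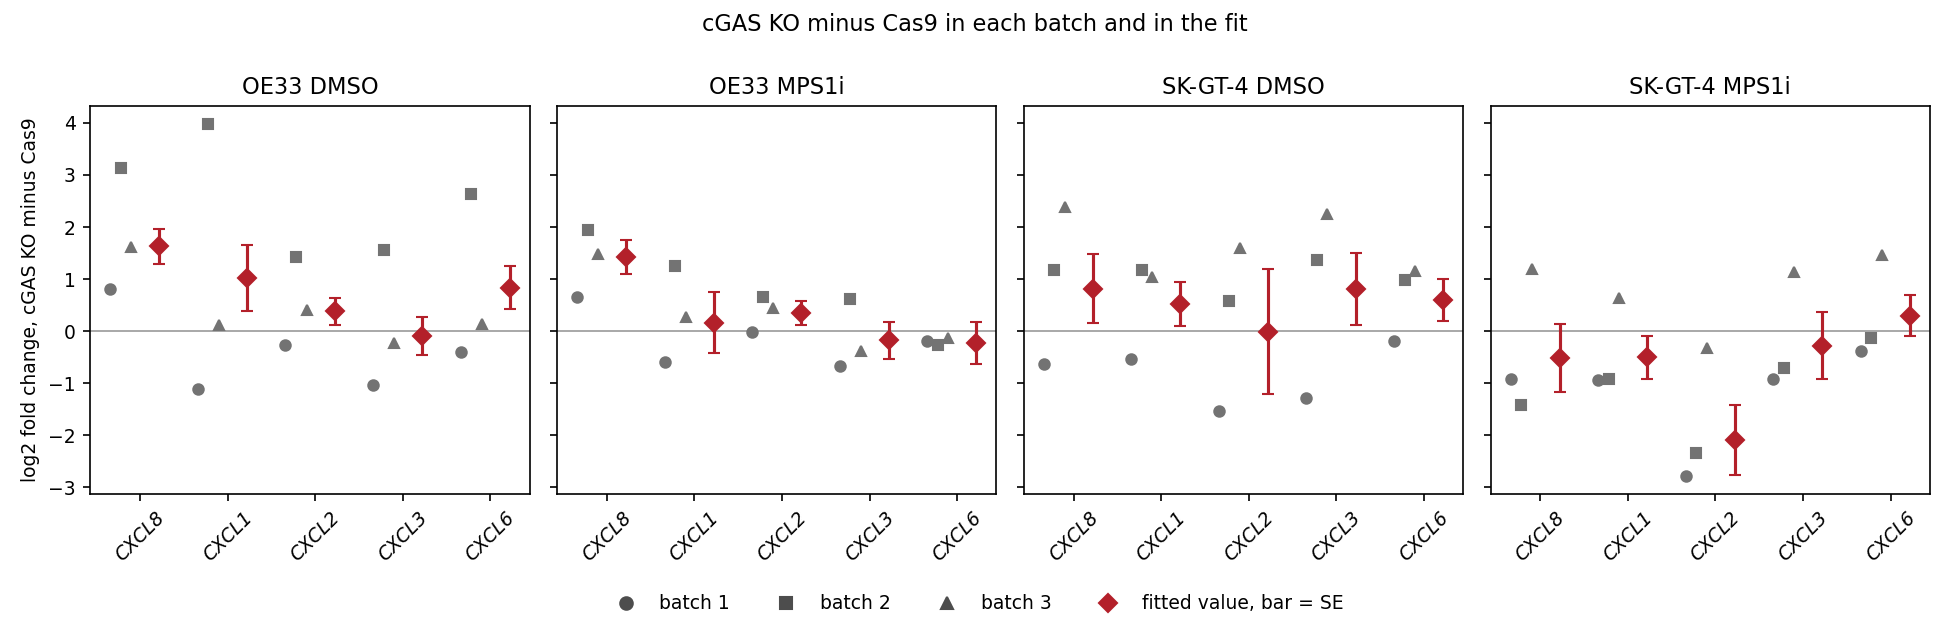
Log2 difference of cGAS KO from Cas9 for the 5 measured members, by line and treatment, with bars of 1 SE from edgeR and 1 point for each batch. CXCL8 in OE33 lies above 0 in all 6 pairs, and CXCL2 in SK-GT-4 with MPS1i lies below 0 in all 3.

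The ligands' receptors and most of the platelet relatives were almost without reads. CXCR1 had 2 counts and CXCR2 5 over all 24 libraries, the decoy receptor ACKR1 0 and the platelet chemokine PF4 2. PPBP, another CXCR2 ligand of platelets, had 238 counts, at most 32 in a library, and was above the floor in 15 of 24. In SK-GT-4 with DMSO its mean was 0.06 CPM in Cas9 and 0.82 CPM in cGAS KO. With MPS1i the means were 0.09 and 0.73 CPM, and PPBP was not called in either treatment. PF4V1 had 29 counts, of which 17 were in OE33 cGAS KO DMSO replicate 2. These levels do not allow a change in receptor message to be seen at this depth.

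The 18 NF-kB and AP-1 regulators differed most between lines. In Cas9 cells with DMSO 9 of 18 were called higher in OE33 and 0 lower, where 10.9% of all genes were called higher, with a list median of 1.29 against -0.14 for all genes. They were the subunits NFKB1 (1.06), NFKB2 (3.03), RELA (1.62) and RELB (2.28), the IkB family members NFKBIE (2.38) and NFKBIZ (2.81), the ubiquitin enzymes TNFAIP3 (3.94) and BIRC3 (3.77), and CEBPB (1.47), a C/EBP factor. ZFP36, which binds AU-rich elements and speeds decay, was the 1 of 8 decay regulators called, higher by 2.45 in OE33, a share near that of all genes. In the GENCODE v44 transcripts ATTTA, the core of such elements, occurs 10 times in the 3′ UTR of CXCL2 (14 per kb), 7 times in CXCL3 (10.4 per kb) and 9 times in CXCL8 (7.19 per kb), 6 times in CXCL1 (7.77 per kb), 6 times in CXCL6 (5.36 per kb) and 11 times in CXCL5 (5.51 per kb). Of 14 upstream cytokines and sensors 3 were called higher in OE33, the antagonist IL1RN (4.81), the receptor IL17RA (1.57) and the RNA sensor TLR3 (1.99). IL1RN read 0.0511 to 0.246 CPM in SK-GT-4 Cas9 with DMSO, near the floor, so the size of its difference is uncertain. Among 7 other neutrophil cues LIF (2.57) and CXCL16 (5.12) were called higher. Without batch 3, NFKB1, RELA, NFKBIZ, ZFP36, IL17RA and TLR3 lost their calls, with adjusted p values from edgeR of 0.0114 to 0.194, and NFKB1 also lost its call without batch 1 (0.0405) or batch 2 (0.0139).

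With MPS1i no gene of these lists was called in any line or genotype. Of all genes tested, 1 of 20426 was called in OE33 Cas9 and 0% in the other groups. The lack of calls thus says little about these lists. The median of the NF-kB and AP-1 regulators was 0.06 in OE33 Cas9 and 0.07 in OE33 cGAS KO, and 0.55 in SK-GT-4 Cas9 and 0.38 in SK-GT-4 cGAS KO. Examples with the largest values in SK-GT-4 Cas9 were RELB (1.23, SE 0.34) and BIRC3 (1.14, SE 0.36), and in OE33 Cas9 ATF3 (0.76) and BIRC3 (0.62, SE 0.15). For SK-GT-4 BIRC3 the value in cGAS KO was 1.18 (SE 0.36), against the 1.14 in Cas9. IL6, a cytokine that often accompanies CXCL8, had 1.78 (SE 0.51) in SK-GT-4 Cas9. In SK-GT-4 cGAS KO it was at or near the floor of 3 counts, so no fold change is given there.

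Between genotypes the calls in these lists were CGAS, STING1 and 2 neutrophil cues. In OE33, 1.00% of all genes were called higher and 0.465% lower with DMSO, and 1.88% and 0.955% with MPS1i. In SK-GT-4 the shares were 1.10% and 0.658% with DMSO, and 0.812% and 0.597% with MPS1i. CGAS was called lower in SK-GT-4 cGAS KO too, at -2.01 with DMSO and -2.60 with MPS1i, calls that were lost without batch 3 (adjusted edgeR p of 0.265 and 0.156) and, with DMSO, also without batch 1 (0.0172) or batch 2 (0.0129). Both held in edgeR without Cas9 MPS1i replicate 2 (adjusted p = 0.000790 and 0.000796) and without cGAS KO DMSO replicate 1 (0.00224 and 0.000248). STING1, the adaptor downstream of cGAS, was lower in OE33 cGAS KO with MPS1i by edgeR (-1.26, SE 0.24, adjusted p = 0.00412). In SK-GT-4 with MPS1i, IL6 was called lower in the knockout (adjusted p = 0.00163) and CXCL16 higher (2.27, SE 0.35, adjusted p = 0.00455) in the same test. IL6 read 1.13 to 8.43 CPM in Cas9 and 0.0517 to 0.122 CPM in the knockout, at or under the floor of 3 counts, so its fold change is not given. Both passed without Cas9 MPS1i replicate 2 (0.000879 and 0.00425) and neither without batch 3 (0.142 and 0.316) or with no batch terms (0.0364 and 0.0182). IL6 also missed without batch 1 (0.0111) and CXCL16 without batch 2 (0.0237). STING1 passed without cGAS KO DMSO replicate 2 (0.000515) and missed without any 1 batch (0.0161 to 0.0909) and with no batch terms (0.351). In OE33 with DMSO, TNFAIP3 (0.66) and BIRC3 (0.60) did not pass, with adjusted p values of 0.0331 and 0.0336 in edgeR. Of 12 neighbours within 500 kb of the members, 8 could be tested within a line and none was called with MPS1i or between genotypes. Between the lines 9 were tested. EREG (1.44) and AREG (2.54), ligands of the EGF receptor, were called higher in OE33, and MTHFD2L (-1.25) and AFP were called lower. In that comparison 10.9% of all genes were called higher and 13.5% lower. In Cas9 cells with DMSO, AFP read at most 0.0517 CPM in OE33, under the floor, and 0.246 to 0.929 CPM in SK-GT-4. Its fold change is therefore not given. Of these 4 neighbours, AREG passed without batch 3, while EREG, MTHFD2L and AFP missed (adjusted p from edgeR of 0.0233, 0.156 and 0.0389), and MTHFD2L also missed without batch 1 (0.0276).

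Genes whose log2 CPM followed the mean of the 5 measured members most closely over 12 libraries differed between the lines. In OE33 they were RASSF5 (Pearson's r = 0.91), SECTM1 (0.90), PCMTD2 (0.89), KRT16 (0.89) and SLC44A4 (0.88) of 11137 genes compared. In SK-GT-4 they were IDH1 (0.88), IL1B (0.88), MAFF (0.88), CHMP1B (0.87) and RBCK1 (0.87) of 11917. IL1B encodes interleukin-1 beta, and MAFF is a small MAF factor. The libraries share batches and scaling, so these r values describe the libraries and carry no test.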

How the data were processed

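Poly(A) RNA was sequenced by the study's authors as paired reads of 150 bases. They mapped the reads to GRCh38 with HISAT2 2.0.5 and deposited raw read counts per gene, summed by featureCounts 1.5.0. The annotation release, strand setting and treatment of multiply mapped reads are not given in the sources used here. The deposited counts were fitted with edgeR 4.0.16 (R 4.3.3), TMM factors and the study's filter (total of at least 5, nonzero in at least 4 libraries) in a quasi-likelihood model with group and batch terms, on 12 libraries for each line or on 24 for the comparison of lines. P-values were adjusted by Benjamini-Hochberg over all genes tested and called at 0.01 or less, and SE is the log2 fold change divided by the root of F. The common biological coefficient of variation was 15.0% for OE33 and, for SK-GT-4, 34.0%. CPM used TMM factors of all 24 libraries, and log2 CPM a prior count of 2. Batches follow the labels, which give each library a batch number. Deviations of DMSO and MPS1i libraries of 1 genotype and batch had r of 0.473 to 0.853 in OE33 and 0.0775 to 0.757 in SK-GT-4, the lowest, near no correlation, in Cas9 batch 2, so the pairing rests on the labels. Batch numbers were taken as shared between genotypes and lines. The study names them biological replicates, without saying more of the cultures, so p-values measure only the spread between these samples, which may in part be technical.

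Members and gene lists were chosen with earlier results of these data known. Named are the members, list genes that were called, CGAS, up to 4 further examples a list with a mean of at least 10 counts and the largest changes, and the 5 genes of each line most correlated with the members. On simulated data with dispersions on the trend the calls held to the threshold, but with gene-wise dispersions more unchanged genes were called in OE33 than the threshold implies. Alternatives were DESeq2 1.42.0, ComBat-seq (sva 3.50.0) before DESeq2, other scaling, filters, batch terms and thresholds, and leaving out libraries or batches.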

Additional observations from a re-analysis of the deposited data

Results flagged for a closer look

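CXCL2 in SK-GT-4 stood out because the effect of MPS1i went opposite ways in the genotypes in every batch. It was higher with MPS1i in 3 of 3 batches in Cas9 cells (median log2 CPM difference 1.64) and lower in 3 of 3 in cGAS KO cells (median -0.27, on 9 to 19 counts a library). In cGAS KO batch 1 the raw counts were 19 with MPS1i and 16 with DMSO, so the sign there rests on scaling, in which the DMSO library, cGAS KO DMSO replicate 1, had a TMM factor of 0.77 and correlated least with its group. The fitted difference between the effects was 2.08 (SE 0.95), with an unadjusted p of 0.0513 and an adjusted p of 0.823 by edgeR's quasi-likelihood test. Over the alternatives the adjusted p ran from 0.493 to 1 and the difference from 1.58 to 3.02, and no alternative gave a call.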

How the results depend on the processing

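Of the log2 fold changes of the 5 measured members under all alternatives, 595 stayed on the same side of the threshold with the same sign, 22 newly passed it, 4 no longer passed and 49 changed sign. Members called with MPS1i, 0 in each group, were 2 in OE33 Cas9 and 2 in OE33 cGAS KO with no filter on low counts, 2 and 1 with the replicate block for each genotype and batch, and 1 and 2 with ComBat-seq then DESeq2. The corresponding genes called higher in OE33 Cas9 were 1 of all genes, 77 of 28006 with no filter, 61 with that block and 462 with ComBat-seq. In cGAS KO they were 0, 98, 70 and 130 in the same order. Knockout calls, also 0, were 3 with DMSO and 1 with MPS1i in OE33 with no filter, and 1 and 1 at an adjusted p of 0.05. With no filter, 688 of 28006 genes were called higher and 358 lower with DMSO, and 943 and 598 with MPS1i. With the filter these were 205 and 95, and 385 and 195. At an adjusted p of 0.05, 2.76% of genes were called higher with DMSO and 4.71% with MPS1i. When libraries were left out, knockout calls of members ranged from 0 to 1 in OE33 with either treatment. In SK-GT-4 they ranged from 0 to 2 with DMSO and from 0 to 1 with MPS1i. Of all genes, 6 to 588 were then called higher in OE33 with DMSO and 11 to 788 with MPS1i. In SK-GT-4, 0 to 1789 were called higher with DMSO and 0 to 1147 lower with MPS1i. Between lines, 2 members were called, 3 with no filter (CXCL8 in addition), 1 with no replicate block and 0 to 2 when libraries were left out. Genes called higher in OE33 were 2737 of 25181, 2854 of 33224 with no filter and 2425 with no replicate block. Those called lower were 3397, 3536 and 3119. Leaving out libraries gave 1272 to 3860 higher and 1631 to 4264 lower. With no replicate block the adjusted edgeR p of OE33 CXCL8 in the knockout was 0.315 with DMSO and 0.275 with MPS1i. The cause of these shifts was not tested.

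Changes of sign outside the leave-outs were CXCL1 in OE33 cGAS KO with MPS1i (0.00 after ComBat-seq), CXCL2 in the OE33 difference (-0.05 with no replicate block), CXCL2 in the SK-GT-4 knockout with DMSO (0.12 with DESeq2, 0.02 with RLE factors, 0.04 with edgeR's own filter) and CXCL8 in the line difference of the MPS1i effect (0.19 with no replicate block). Leaving out libraries gave ranges across 0 as follows. With MPS1i they were -1.24 to 0.83 for CXCL1 and -1.01 to 0.35 for CXCL6 in OE33 cGAS KO, -0.05 to 0.66 for CXCL6 in SK-GT-4 Cas9, and -0.19 to 0.27 for CXCL8, -0.17 to 0.15 for CXCL6 and -0.41 to 0.50 for CXCL3 in SK-GT-4 cGAS KO. The OE33 difference ranged from -0.60 to 1.53 for CXCL1, -0.15 to 0.31 for CXCL2 and -0.32 to 0.53 for CXCL3, and the SK-GT-4 difference from -0.08 to 0.54 for CXCL6. The OE33 knockout difference ranged with DMSO from -0.53 to 2.14 for CXCL1, -0.15 to 1.51 for CXCL6 and -0.69 to 0.58 for CXCL3, and with MPS1i from -0.16 to 0.61 for CXCL1 and -0.54 to 0.05 for CXCL3. In SK-GT-4 it ranged with DMSO from -0.01 to 1.92 for CXCL8 and -0.74 to 1.40 for CXCL2, and with MPS1i from -1.23 to 0.57 for CXCL8, -0.23 to 0.64 for CXCL6 and -0.85 to 0.11 for CXCL3. Between lines CXCL1 ranged from -0.15 to 1.32, and the MPS1i effect of CXCL8 from -1.04 to 0.43. With 3 libraries a group and CXCL2 and CXCL3 as low as 4 counts in SK-GT-4 libraries, counting error limits these members.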
